A study of Rattus norvegicus with 18 samples.

Results

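The zinc finger protein genes described here are the genes of the rat RefSeq table whose symbol is Zfp or Znf followed by a number. They were looked for among the transcripts that the authors assigned to differentially methylated regions in 4 tables, each covering 1 comparison of fetal rat germ cells. The rule found 256 of the 61661 listed regions, at 89 of the 8243 genes that have a region in any table. All 89 genes carry a Zfp symbol. The gene table holds 476 symbols of the family, of which 271 have a curated transcript and could be matched. Genes without a listed region cannot be told apart from genes outside the capture panel.

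The germ cells came from fetuses of Sprague-Dawley rats of the genotype GFP-GCS, in which a green fluorescent protein marks germ cells, and were isolated by cell sorting. The 18 samples form 5 groups, all carrying the transgene: 4 samples from males of dams on a high-fat diet (HFD) with 45% of energy from fat and 4 from males of dams on a control diet with 18%, both at gestational day (GD) 16. At GD16 there were also 3 samples from HFD females and 3 from control females, and at GD18 there were 4 from control males. Each diet had 5 dams. The labels do not say whether a group's samples stem from separate litters, and the design text does not name the group of the 4 samples taken from an earlier project. The files hold methylation and no expression, so the sorted cells could not be checked against markers of germ cells or of other gonadal cells.

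Most members encode proteins with C2H2 zinc fingers, small folds that hold a zinc ion and together read a stretch of DNA. Many of them also carry a KRAB domain, which recruits TRIM28 and with it histone methylation, heterochromatin proteins and DNA methylation to transposons and imprinted regions. Others act as developmental regulators without a KRAB domain. A few members of the name family are not transcription factors of this kind, such as Zfp36l3, whose fingers bind RNA, and Zfp598, a ubiquitin ligase that acts on stalled ribosomes. Germ cells of the embryo and fetus lose most of their DNA methylation, and male germ cells regain it before birth.

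Promoter sequences are shown for 4 members because listed regions lie at their annotated promoters: Zfp772 and Zfp575 in the diet comparison of males, and Zfp831 and the imprint regulator Zfp57 in the comparison of sexes. The sequences are those of RefSeq on GRCr8, each 300 bases long from 250 before to 50 after the transcript start, with every CpG in capitals. No source used here names the build of the authors' coordinates, so the windows are not placed relative to the listed regions. Zfp772 (chr1:75742431-75742730, minus strand) has 8 CpGs in this window, Zfp575 (chr1:89304985-89305284, minus strand) 12, Zfp831 (chr3:183855926-183856225, plus strand) 4 and Zfp57 (chr20:1534869-1535168, minus strand) 17.
Zfp772: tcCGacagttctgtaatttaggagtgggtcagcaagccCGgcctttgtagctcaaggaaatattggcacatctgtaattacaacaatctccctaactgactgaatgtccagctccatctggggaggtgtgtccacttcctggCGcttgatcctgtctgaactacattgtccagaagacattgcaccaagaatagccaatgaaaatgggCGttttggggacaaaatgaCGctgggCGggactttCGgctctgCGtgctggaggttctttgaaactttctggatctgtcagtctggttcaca
Zfp575: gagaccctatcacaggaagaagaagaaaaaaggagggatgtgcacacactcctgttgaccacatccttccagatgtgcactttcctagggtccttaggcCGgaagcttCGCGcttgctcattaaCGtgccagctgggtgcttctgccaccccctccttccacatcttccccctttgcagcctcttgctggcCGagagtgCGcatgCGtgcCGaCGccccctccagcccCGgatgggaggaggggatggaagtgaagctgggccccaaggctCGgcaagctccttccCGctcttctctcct
Zfp831: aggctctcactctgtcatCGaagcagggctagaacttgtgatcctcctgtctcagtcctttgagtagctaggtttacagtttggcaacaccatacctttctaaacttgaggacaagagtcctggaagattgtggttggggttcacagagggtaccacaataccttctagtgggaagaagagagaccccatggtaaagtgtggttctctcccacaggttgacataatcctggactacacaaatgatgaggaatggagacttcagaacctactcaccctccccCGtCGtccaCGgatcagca
Zfp57: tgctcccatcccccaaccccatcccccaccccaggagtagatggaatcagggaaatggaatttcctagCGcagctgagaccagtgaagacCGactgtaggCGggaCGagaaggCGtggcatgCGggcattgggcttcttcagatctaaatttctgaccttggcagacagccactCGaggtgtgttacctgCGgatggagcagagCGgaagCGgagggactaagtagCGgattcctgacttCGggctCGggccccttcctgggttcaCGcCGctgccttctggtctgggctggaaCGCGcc

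Such a window was at hand for 75 of the 89 genes, as 78 windows. Their median was 18 CpGs, against 7 over all 33469 promoter windows of the genome and 11 over the 504 windows of Zfp and Znf symbols. The 8 genes that have both a listed promoter region and a window had a median of 12. A CpG occurs in 94.5% of all windows. The hexamer TGCCGC, known from mouse as the core that Zfp57 reads when methylated, was searched on both strands. It stood in 19.2% of the members' windows, in 11.7% of all windows and in 11.5% of the windows of Zfp and Znf symbols. Among the windows of genes with a listed promoter region it stood in 0 of 8, too few to read a share from. The hexamer holds a CpG, and the part of CpG number in these shares was not tested. Members were picked as genes with a listed region of at least 5 CpGs, and all 89 have a curated transcript. The wider sets of windows were not picked in this way. No values are given here for windows of other genes with a listed region, and the part of this choice in the CpG numbers and hexamer shares was not tested.

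All methylation levels that follow are the authors' group means of a region, in percent of CpG methylation, and a difference is given in percentage points. No value per sample was in the tables, so the spread between animals and the depth are unknown, and no test could be made over samples. Higher and lower are used of regions that the authors listed, which they did for regions with at least 5 CpGs, a difference of at least 10 points and a false discovery rate (FDR) of at most 0.05. The rows do not say what the unit of their t-test was, and FDRs among the members went down to 9.32e-23 in the comparison of 4 male with 3 female samples. Coordinates are those of the authors' tables.

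The first comparison asks how maternal HFD changes methylation in male germ cells at GD16. Of the 89 genes, 34 had a listed region, which is 38.2% of them, against 35.6% of all 8243 genes. Their 50 regions were mostly lower on HFD, with 36 lower and 14 higher. The share of higher regions was 28.0% (exact 95% interval 16.2 to 42.5%, counting error over regions only), against 26.0% of all 10084 regions of the comparison. In both direction and frequency the zinc finger genes lay near the background of the comparison. At the lower regions the median level was 11.55% in HFD males and 26.3% in control males, and at the higher regions it was 29.4% in HFD males and 7.75% in control males. Over all listed regions the median was 10.3% in HFD males and 25.2% in control males at lower ones, and 27.7% in HFD males and 10.5% in control males at higher ones.

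**Figure D1:**
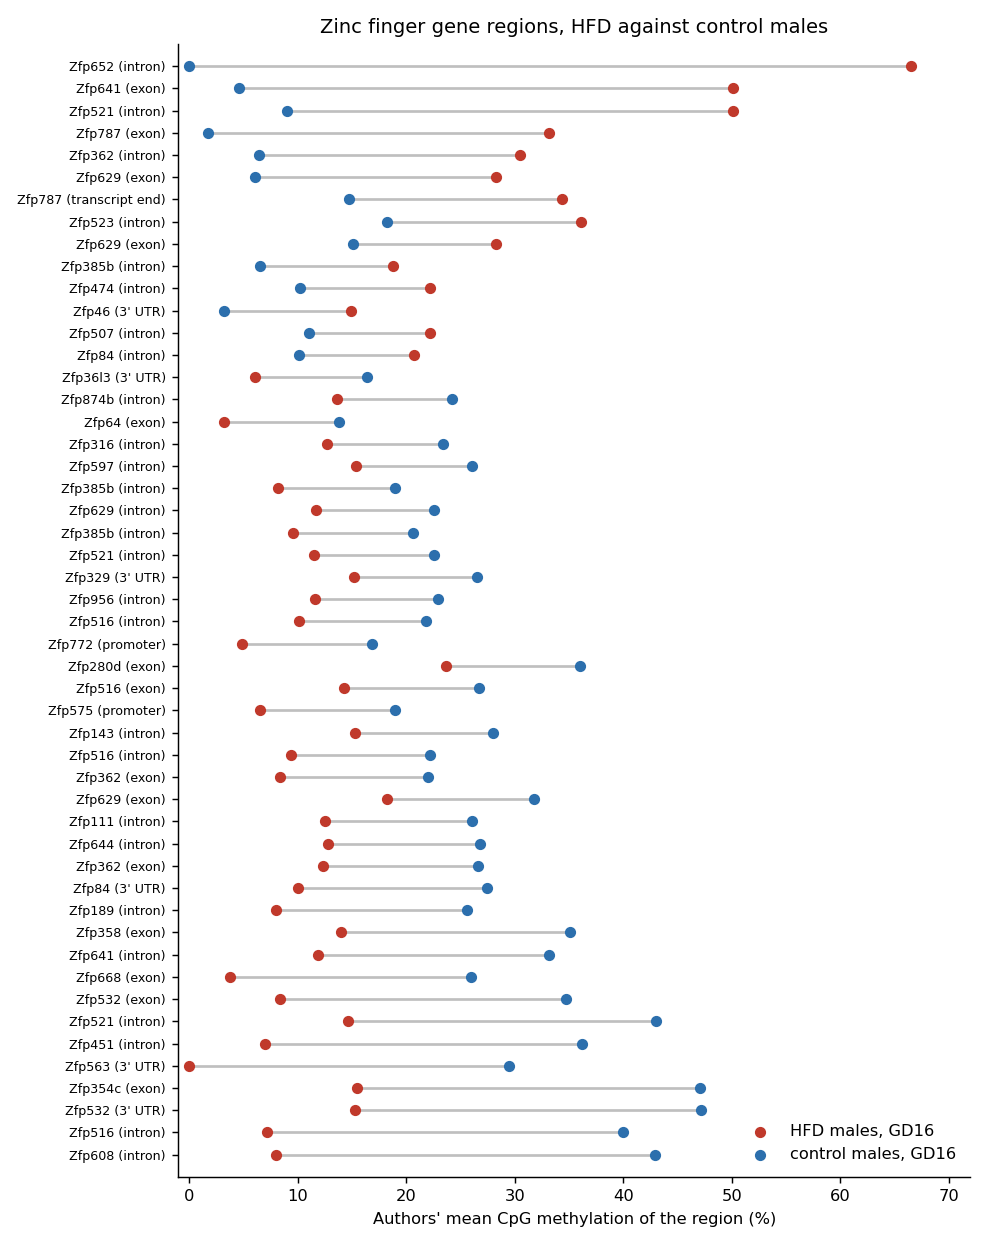
Mean CpG methylation (x axis, percent) of the 50 zinc finger gene regions in HFD males (red) and control males (blue) at GD16, from the authors' deposited table, sorted by the signed difference; each line joins the 2 means of 1 region. The 14 regions at the top were higher in HFD males, led by an intron of Zfp652 at 66.5% in HFD males and 0% in control males, and the 36 below were lower.

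The largest fall in HFD males was at Zfp608. In the authors' deposited table its intron region (chr18:49879917-49879999, 7 CpGs) stood at 8.0% in HFD males and 42.9% in control males. Zfp516, which promotes brown fat genes in mouse, had 4 lower regions and none higher. The largest of its falls in the authors' deposited table was in an intron (chr18:79825678-79825863, 8 CpGs), at 7.2% in HFD males and 40.0% in control males. The neighbouring region, which ends at the base where that one starts, was at 10.1% in HFD males and 21.8% in control males in the authors' deposited table.

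Zfp532 had 2 lower regions. The 3' UTR region (chr18:61367973-61368104, 11 CpGs) was listed in the authors' deposited table at 15.3% in HFD males and 47.2% in control males, and an exon region at 8.4% in HFD males and 34.7% in control males. Zfp354c, a KRAB protein, had an exon region (chr10:36312590-36312760, 6 CpGs) at 15.5% in HFD males and 47.1% in control males in the authors' deposited table. These regions were among the more methylated of the listed member regions in control males, which a pick by size of fall favours. On HFD they lay within the range of the other lower regions, where the levels of HFD males ran from 0 to 23.7%. The 0% in that range was a 3' UTR region of Zfp563 with 5 CpGs, at 29.5% in control males in the authors' deposited table.

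The rises were fewer. The 4 largest were at regions with low levels in control males, which a pick by size of rise favours. Zfp652, a transcriptional repressor, had an intron region (chr10:83567556-83567675, 5 CpGs) at 66.5% in HFD males and 0% in control males in the authors' deposited table. An exon region of Zfp641 (chr7:139901051-139901118, 5 CpGs) was at 50.1% in HFD males and 4.6% in control males in the authors' deposited table. Zfp521, a cofactor that keeps progenitors of blood, fat and nerve cells undifferentiated, had an intron region (chr18:5138194-5138336, 6 CpGs) at 50.1% in HFD males and 9.0% in control males in the authors' deposited table. Zfp787 was the only gene with several regions that were all higher. Its exon region (chr1:71446214-71446310, 12 CpGs) was at 33.2% in HFD males and 1.7% in control males, and its transcript end at 34.4% in HFD males and 14.7% in control males, in the authors' deposited table.

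Large differences were found mainly at regions with few CpGs. Of the 15 regions with 5 or 6 CpGs, 10 differed by 20 points or more, and their median absolute difference was 24.1 points. Of the 19 regions with 7 to 9 CpGs, 4 differed by as much and the median was 12.0 points, and of the 16 with 10 or more CpGs, 3 did and the median was 13.4 points. Over all regions with a gene symbol in this comparison the medians in the same order were 17.6, 13.7 and 12.0 points. The part of CpG number in the large differences was not tested.

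Of the 34 genes, 9 had more than 1 region, and 6 of these had regions in both directions: Zfp385b, Zfp521, Zfp362, Zfp629, Zfp84 and Zfp641. Zfp516 and Zfp532 were lower at all their regions in males. In Zfp629 the 4 regions lie next to each other within 199058765 to 199062740 on chromosome 1. In this order the authors' deposited table gives 18.2%, 28.3%, 28.3% and 11.7% in HFD males, against 31.8%, 15.1%, 6.1% and 22.6% in control males. The direction thus turned at both ends of a pair of higher exon regions, with a lower region on either side. In Zfp521 the higher intron region lies close to a lower one (chr18:5139493-5140063, 21 CpGs), at 11.5% in HFD males and 22.6% in control males in the authors' deposited table. Zfp84 had a higher intron region at 20.7% in HFD males and 10.1% in control males, and a lower 3' UTR region at 10% in HFD males and 27.4% in control males, in the authors' deposited table.

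Promoters made up 2 of the 50 diet regions in males, 4.0%, against 4.87% of the regions with a gene symbol, and 1 more region lay in a CpG island. The promoter region of Zfp772 (chr1:69744351-69744740, 7 CpGs) was at 4.9% in HFD males and 16.8% in control males in the authors' deposited table. The promoter region of Zfp575 (chr1:81450832-81451116, 5 CpGs) was at 6.5% in HFD males and 19.0% in control males in the authors' deposited table. A CpG island in an intron of Zfp143, an activator that binds at many promoters and is required for early mouse development, was at 15.3% in HFD males and 28.0% in control males in the authors' deposited table (chr1:174702459-174702488, 8 CpGs). These 3 regions were lower on HFD, the direction of most promoter regions with a gene symbol, of which 53 of 226 were higher.

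By deposited annotation, 28.0% of the members' regions in this comparison were exonic and 12.0% lay in 3' UTRs, against 16.5% and 2.95% of the regions with a gene symbol. Introns made up 54.0% of the members' regions and 70.8% of the regions with a gene symbol. The comparison of the sexes had the same order, with 29.5% exonic against 14.4%, 5.79% in 3' UTRs against 3.66%, and 54.7% intronic against 72.6%. Among the 6 regions in 3' UTRs in HFD males, those of Zfp532, Zfp563, Zfp84, Zfp329 and Zfp36l3 were lower and that of Zfp46 was higher. The coding fingers of C2H2 genes typically sit in 1 long last exon, and no exon number or coding position is given here. Repeats were named in the annotation of 3 of the 256 regions, 1.17%, against 3.74% of the regions with a gene symbol.

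**Figure D2:**
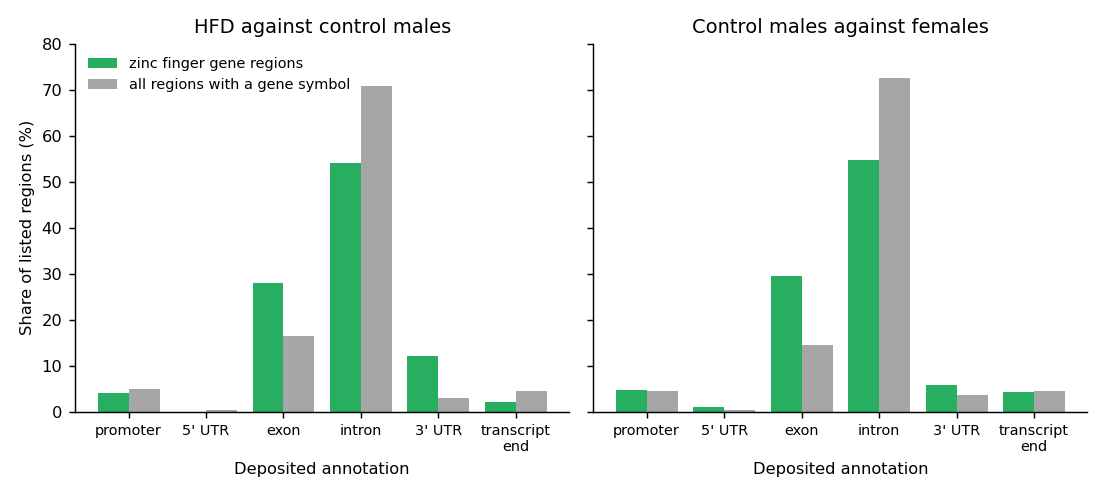
Share of listed regions (y axis, percent) by the authors' annotation (x axis) for zinc finger gene regions (green) and all regions with a gene symbol (grey), in HFD against control males (left) and control males against females (right). Exons and 3' UTRs take a larger share, and introns a smaller one, among zinc finger gene regions in both comparisons.

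In female germ cells at GD16 the same diet comparison listed 9 regions at 8 of the 89 genes. This is 8.99% of the members, against 8.37% of all genes with a region in any table. In HFD females 8 regions were lower and 1 was higher than in control females, so 11.1% were higher (exact 95% interval 0.281 to 48.2%), against 28.3% of all 1832 regions of the comparison, which lies inside that interval. Under a wider rule that adds the Zbtb, Zscan, Zkscan, Zik and Zim genes, 27.3% of 11 regions were higher. At the 8 lower regions the median was 2.55% in HFD females and 19.6% in control females. The largest fall was at Zfp64, known in human leukaemia as an activator of MLL, where a region of 50 bp with 5 CpGs stood at 0% in HFD females and 31.2% in control females in the authors' deposited table, with a deposited p-value of 0.

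The remaining lower regions in females lay at Zfp608, Zfp94, Zfp280d, Zfp37, Zfp148 and, with 2 regions, Zfp516. In the authors' deposited table Zfp608 was at 1.7% in HFD females and 21.4% in control females, in a region that does not touch its male one. In the authors' deposited table a transcript end of Zfp94 was at 4.5% in HFD females and 22.8% in control females, and an exon of Zfp280d at 7.6% in HFD females and 22.1% in control females. Zfp37 and Zfp148, a regulator that binds GC-rich promoter sites, fell to 0.9% and 1.5% in HFD females, against 14.6% and 12.0% in control females, in the authors' deposited table. No lower region exceeded 7.6% in HFD females.

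The diet comparisons of males and of females share no samples, and 4 of the 50 male regions overlapped 3 of the 9 female ones by at least 1 bp. This is 8.0% of the male and 33.3% of the female zinc finger gene regions, against 2.89% and 15.8% of all regions in the same tables. The overlaps lie at Zfp516, Zfp280d and Zfp532. Neighbouring male regions of Zfp516 met the same female region, and at Zfp532 the directions differed. With so few overlaps no difference from the shares of all regions can be read. The exon region of Zfp280d had the same coordinates in both (chr8:78947391-78947909, 11 CpGs). There the authors' deposited tables give 23.7% in HFD males against 36.0% in control males, and 7.6% in HFD females against 22.1% in control females, a fall in both sexes.

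In the intron of Zfp516 the diet regions were also lower in both sexes. The female region (chr18:79825419-79825782, 10 CpGs) was at 6.5% in HFD females and 17.5% in control females in the authors' deposited table, and it overlaps both neighbouring male regions described above. At the 3' UTR of Zfp532 the directions differed. HFD females were at 12.3% and control females at 0.7% in the authors' deposited table (chr18:61367799-61368114, 15 CpGs), whereas HFD males were at 15.3% and control males at 47.2%. The listed levels of the sexes were thus close on HFD and far apart on the control diet. The male and female stretches differ in their ends and CpGs. The difference between the sexes in the diet effect was not tested, since the tables hold no value per sample.

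Control males were next compared with control females at GD16, which asks how far the sexes differ in methylation. This comparison listed most of the 256 member regions, with 190 regions at 79 of the 89 genes. Those are 88.8% of the members, against 94.9% of all genes with a region in any table. Males were higher at 189 regions and lower at 1, which is 99.5% higher (exact 95% interval 97.1 to 100%), against 99.7% of all 48127 regions. At the higher regions the median was 19.9% in control males and 4.6% in control females, and over all listed regions it was 19.6% in control males and 4.7% in control females. The members followed the whole table closely in both level and direction.

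**Figure D3:**
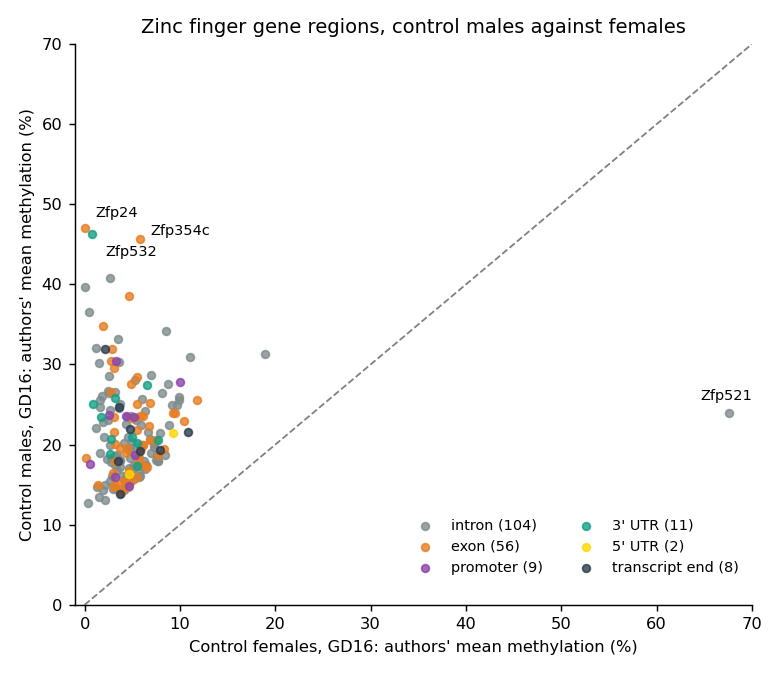
Mean CpG methylation of the 190 zinc finger gene regions in control males (y axis, percent) and control females (x axis, percent) at GD16, from the authors' deposited table, coloured by annotated feature; the dashed line marks equal levels. All points but an intron region of Zfp521, at 24.0% in males and 67.6% in females, lie above the line.

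The largest rise in control males over control females was in an exon of Zfp24, a SCAN domain protein with a role in neural progenitors and myelination. Its region (chr18:15918301-15918382, 5 CpGs) was at 47.0% in control males and 0% in control females in the authors' deposited table. The next largest rises were at Zfp532 and Zfp354c, at the same places as in the diet comparison of males. In the authors' deposited table Zfp532 was at 46.3% in control males and 0.8% in control females in the 3' UTR, and Zfp354c at 45.7% in control males and 5.8% in control females in an exon. Zfp608 was at 39.7% in control males and 0% in control females, again in the region lower in HFD males, in the authors' deposited table. This comparison and the diet comparison of males share the control males, so these values are given side by side and are not independent.

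Genes known to guard pluripotency and imprints were looked at as a list. Some genes are entered in it under both a Zfp and a Znf name. Of its 17 symbols, 9 are in the gene table and 5 had a listed region. In the sex comparison Zfp57, Zfp445, Zfp217 and Zfp281 had 5 regions, all higher in males, and in the diet comparison of males only Zfp143 had one. These are 4 of 5 and 1 of 5 genes, against 94.9% and 35.6% of all genes with a region in any table, and with 5 genes nothing particular to the list can be read from them. Zfp57 and Zfp445, KRAB proteins that keep imprints methylated after fertilisation, were higher in males: the promoter region of Zfp57 was at 18.7% in control males and 5.3% in control females, and the region of Zfp445 at 13.5% in control males and 1.5% in control females, in the authors' deposited table. The promoter region of Zfp217, which encodes a corepressor, was at 23.7% in control males and 2.6% in control females, and Zfp281, a regulator of the exit from pluripotency, was at 18.7% in control males and 7.7% in control females, in the authors' deposited table.

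In all, 9 promoter regions stood in the sex comparison, at Zfp57, Zfp133, Zfp217, Zfp287, Zfp516, Zfp605l1, Zfp644, Zfp772 and Zfp831. The highest male level among them was that of Zfp831 (chr3:172718331-172718547, 6 CpGs), at 30.4% in control males and 3.3% in control females in the authors' deposited table. At the promoter of Zfp772, which was also lower in HFD males, the authors' deposited table gives 15.9% in control males and 3.2% in control females. All 9 were higher in males, as were 1031 of the 1039 promoter regions with a gene symbol.

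The list of developmental multi-finger regulators has 25 symbols, with most genes entered under both a Zfp and a Znf name. Of these symbols, 13 are in the gene table and 5 had a region: Zfp516, Zfp521, Zfp644, Zfp652 and Zfp148. They had 2 higher and 7 lower regions in HFD males, 0 higher and 3 lower in HFD females, 38 higher and 1 lower in control males against control females, and 0 higher and 2 lower in GD18 males. Of all regions in these comparisons, 26.0%, 28.3%, 99.7% and 7.54% were higher. In direction the list lay near the background in HFD males and the sex comparison. In the others it has too few regions to tell. Of the 5 genes, 4, 2, 5 and 2 had a region in these comparisons, in the same order. Of all genes with a region in any table, 35.6%, 8.37%, 94.9% and 7.50% had one. The list's shares lay above these. Zfp516 and Zfp521 are among the genes with most regions, and with 5 genes the difference was not tested. Zfp644, a partner of the histone methyltransferases G9a and GLP, had 7 regions. Its diet region was at 12.8% in HFD males and 26.8% in control males in the authors' deposited table. In the sex comparison its 6 regions ran from 18.6 to 28.7% in control males and from 5.2 to 9.9% in control females.

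The regions were unevenly spread over genes. Zfp385b had 24, Zfp521 22, Zfp516 17 and Zfp532 12, together 75 or 29.3% of all, while 42 genes had 1 each. Regions are counted per comparison here, so a stretch listed in several comparisons counts several times. The 256 regions form 217 distinct stretches, of which 31 stood in 2 or more comparisons. The regions of Zfp385b were spread over 272 kb and those of Zfp521 over 229 kb, whereas those of Zfp516 lay within 41.9 kb. The 21 sex regions of Zfp385b were all higher in males, from 15.0 to 34.2% in control males and from 0.9 to 11.0% in control females. Its diet regions were 1 higher at 18.8% in HFD males and 6.5% in control males, and 2 lower at 9.6% and 8.2% in HFD males, against 20.6% and 19.0% in control males, in the authors' deposited table. Zfp362, next with 10 regions, had a higher intron region at 30.5% in HFD males and 6.4% in control males between lower exon regions at 8.4% and 12.3% in HFD males, against 22.0% and 26.6% in control males, in the authors' deposited table.

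**Figure D4:**
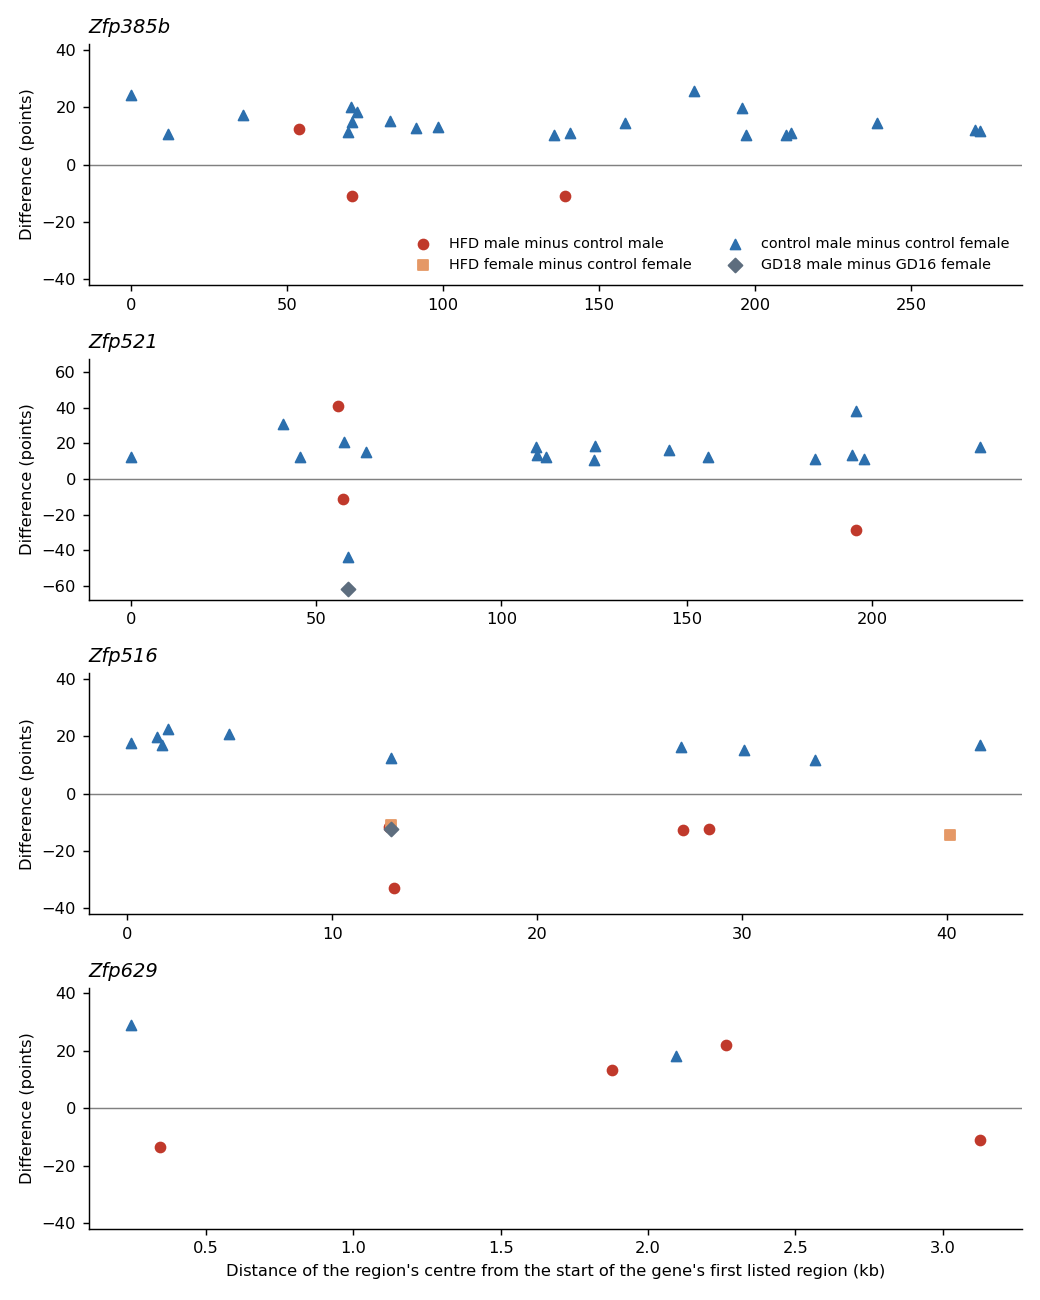
Difference in mean methylation (y axis, percentage points) of each listed region of Zfp385b, Zfp521, Zfp516 and Zfp629 against the distance of its centre from the gene's first listed region (x axis, kb), by comparison (circles, HFD minus control males; squares, HFD minus control females; triangles, control males minus control females; diamonds, GD18 males minus GD16 females). Zfp516 was lower at all diet regions, Zfp629 was higher at 2 regions between 2 lower ones in HFD males, and 1 region of Zfp521 was far lower in control males of both ages than in control females.

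Zfp516, Zfp521 and Zfp532 lie on chromosome 18, which held 60 of the 256 regions (23.4%) at 7 genes, against 2.93% of the regions with a gene symbol. Chromosome 1 held 49 regions (19.1%) at 24 genes, against 9.89%. Zinc finger genes often lie in clusters, and 28 of the 89 genes lay within 1000000 bp of another member's region, in 8 runs. The largest run, on chromosome 1 from 80933948 to 81954060, holds Zfp180, Zfp111, Zfp61, Zfp94, Zfp428, Zfp575 and Zfp574. Its 14 regions include 2 of the diet comparison of males, both lower: Zfp575 at its promoter and Zfp111 in an intron, at 12.5% in HFD males and 26.1% in control males in the authors' deposited table. Recently duplicated zinc finger genes can share sequence, and whether reads were split between copies was not tested.

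Control males at GD18 were set against control females at GD16, a comparison in which sex and age cannot be told apart. The samples of an earlier project are not assigned to a group in the sources used here, so project may also differ between these groups and was not tested. The GD18 comparison listed 7 regions at 7 of the 89 genes. This is 7.87% of the members, against 7.50% of all genes with a region in any table. All 7 were lower in GD18 males, with 0% higher (exact 95% interval 0 to 41.0%), against 7.54% of all 1618 regions. Their median was 4.5% in GD18 males and 18.0% in GD16 females.

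The largest of these differences was in an intron of Zfp521 (chr18:5140879-5140962, 5 CpGs). The authors' deposited tables give 6.0% in GD18 control males and 67.6% in GD16 control females, and 24.0% in GD16 control males against the same 67.6%. This was the only zinc finger gene region lower in control males than in control females at GD16. The next was Zfp219, a partner of Sox9 in mouse cartilage, at 4.5% in GD18 males and 19.9% in GD16 females in the authors' deposited table. Zfp365 was at 1.7% in GD18 males, against 13.2% in GD16 females, in the authors' deposited table. Zfp91, which encodes a ubiquitin ligase, was at 0.8% in GD18 males and 11.3% in GD16 females in the authors' deposited table.

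Zfp516 was the only gene with regions in all 4 comparisons, and they met in the same intron. In the authors' deposited tables this stretch gave 10.1% and 7.2% in HFD males, against 21.8% and 40.0% in control males, 6.5% in HFD females, against 17.5% in control females, 31.3% in control males, against 18.9% in control females, and 6.6% in GD18 males, against the same 18.9% in GD16 females. HFD males, HFD females and GD18 males were thus all below both GD16 control groups. The stretches differ in their ends and CpGs, and the control groups recur between tables. The diet comparison of males and the GD18 comparison share no samples. Of the 50 male diet regions, 3 (6.0%) overlapped 2 of the 7 GD18 regions (28.6%), against 2.65% and 16.3% of all regions. With so few overlaps no difference from the shares of all regions can be read. Besides the overlaps at Zfp516 there was an overlap in an intron region of Zfp84, at 20.7% in HFD males and 10.1% in control males, and at 4.0% in GD18 males and 15.3% in GD16 females, in the authors' deposited tables. Zfp94 was at 4.5% in HFD females and 22.8% in control females, and at 7.8% in GD18 males and 18.0% in GD16 females in an overlapping region, in the authors' deposited tables, which share the control females.

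**Figure D5:**
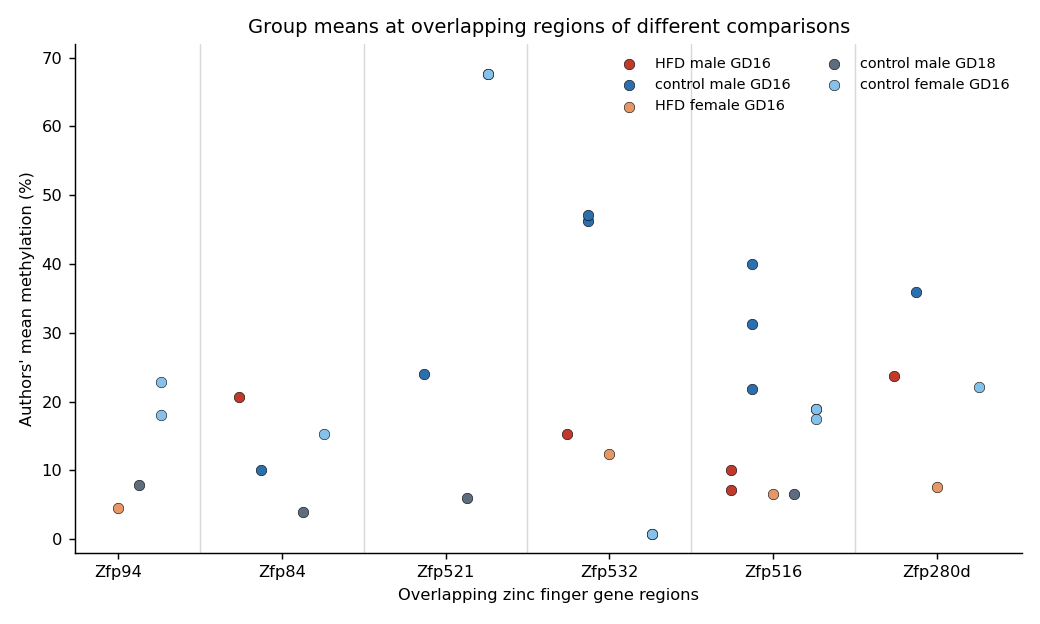
Group means (y axis, percent CpG methylation) at 6 places where regions of different comparisons overlap (x axis), from the authors' deposited tables. Places shared only by the diet comparison of males and the sex comparison are left out. Overlapping regions can differ in their ends and CpGs, and a group listed in several tables has a point for each. At Zfp532 the HFD males (15.3%) and HFD females (12.3%) lie between control males (46.3 and 47.2%) and control females (0.7 and 0.8%), and at Zfp521 control females (67.6%) lie above control males of both ages.

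The partners through which KRAB zinc finger proteins silence chromatin were looked at as a separate list. Of its 21 genes, 5 had a region in any table. Trim28 and Setdb1 had none, and such genes cannot be told apart from genes outside the capture panel. Of the 5 genes, 3 had a region in HFD males, 1 in HFD females, 5 in the sex comparison and 0 in the GD18 comparison. Of all genes with a region in any table, 35.6%, 8.37%, 94.9% and 7.50% had one in these comparisons. In HFD males there were 0 higher and 4 lower regions, where 26.0% of all regions were higher, and so few regions show nothing particular to these genes. In the authors' deposited table Hdac1, a histone deacetylase, was at 11.5% and 14.2% in HFD males, against 27.6% and 35.2% in control males. Dnmt3a, which methylates DNA anew, was at 9.7% in HFD males and 28.5% in control males, and Pphln1, a part of the HUSH silencing complex, at 11.6% in HFD males and 24.4% in control males, in the authors' deposited table. In HFD females an exon region of Hdac1 was higher, at 14.8% in HFD females and 4.7% in control females in the authors' deposited table. The sex comparison listed 17 regions of these genes, at Hdac1, Dnmt3a, Pphln1, Daxx and Dnmt1, all higher in control males than in control females, as were 99.7% of all regions.

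Related zinc finger families outside the naming rule were listed in smaller numbers. In HFD males the Zbtb genes had 14 regions, of which 21.4% were higher, the Prdm genes 6 with 33.3% higher, the Gli genes 5 with 60% higher and the Klf genes 3, all lower. In the sex comparison the 77 Zbtb, 29 Klf and 8 Gli regions were all higher in males and 95.5% of the 22 Prdm regions were, against 99.7% of all regions. With such numbers the families cannot be ranked against the 28.0% of the Zfp genes.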

How the data were processed

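Capture bisulfite libraries (Rat SureSelectXT Methyl-Seq) were made from sorted germ cells, per the labels' protocols. The submitters' processing notes list the tools Bismark 0.19.0 and Bowtie2. According to the design text, calls per locus were cut into segments, which were then searched for differential regions. No source used here names the genome build. Per the file headers, each row of the 4 tables gives a methylation fraction (0 to 1) for the case and for the control group, averaged by the authors over samples. The authors deposited the signed difference of these means as a score, whose sign was that of the means in every row. The p-value of a t-test and the FDR were deposited by the authors. Another 2 deposited tables repeat rows of the full ones and were not used.

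Fractions were turned into percent. Symbols came from a RefSeq gene table (GRCr8, names only), which matched 94.1 to 94.7% of the transcript identifiers in each table. Read counts were not used here, so the depth per sample is unknown, and the limma test planned for values per sample was not made. Shares are given with exact Clopper-Pearson 95% intervals, which treat regions as independent. Overlaps count at least 1 bp. Alternatives were stricter limits on the difference, FDR, CpG number and length, numbered chromosomes and X only, a wider rule for members, 1 region per gene, stricter overlaps, and leaving out the 4 genes with most regions. The code was tested on simulated data. The code ran in Python 3.11.15 with scipy 1.17.1, matplotlib 3.10.9, numpy 2.4.6 and pandas 2.3.3.

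The members and gene lists were chosen with earlier results of these data known. Named genes are, per comparison, the 4 regions with the largest difference in each direction; over all comparisons, the 6 genes with most regions, those in at least 3 comparisons, those with both directions in HFD males, those with a promoter or CpG island region in a diet comparison, and list members with a region. Other genes named, including the 3' UTR genes, the remaining regions of the 2 smallest tables and the neighbours in gene clusters, were chosen after their values were seen.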

Additional observations from a re-analysis of the deposited data

How the results depend on the processing

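Over 28 results and 204 alternative values, 174 lay within the limits set for a like value and 30 moved. None turned in direction, which only the shares of higher regions could have done. The medians were taken within regions already split by direction. No member region lay on an unplaced sequence, and 2 of 256 were shorter than 50 bp. The alternatives for chromosome and length, each with 26 values, could thus hardly move a result. The limits for a like value were the exact interval of a share, 1 SD over regions of a median and a factor of 1.5 of a count. They are wide in HFD females. There the share of higher regions went from 11.1% to 27.3% under the wider rule, beside a background of 28.3%, and to 20% with at least 10 CpGs, where the median of HFD females at lower regions was 4.95% in place of 2.55%. The wider rule gave 68 regions in HFD males and 275 in the sex comparison. With a difference of at least 20 points, 17 regions at 14 genes were left in HFD males, 1 at 1 gene in HFD females (0% higher), 44 at 33 genes in the sex comparison and 1 at 1 gene in the GD18 comparison. The medians then were 36.2% in control males at the regions lower on HFD and 31.2% in control females at those lower in HFD females. They were 28.1% in control males in the sex comparison and 67.6% in control females in the GD18 comparison. Stricter limits leave fewer regions by their construction. With at least 10 CpGs, 16 regions at 12 genes remained in HFD males, where the median of control males at higher regions was 14.7%. Under the same limit 5 regions at 4 genes were left in HFD females, 90 in the sex comparison (100% higher) and 2 at 2 genes in the GD18 comparison. With an FDR of at most 0.01, 3 regions at 3 genes were left in the GD18 comparison, and with 1 region per gene 79 in the sex comparison. Without Zfp385b, Zfp521, Zfp516 and Zfp532, an alternative chosen after seeing the data, 0% of the regions were higher in HFD females and 100% in the sex comparison. The 4 overlaps between the diet comparisons became 2 with a reciprocal overlap of at least 50% and 1 with identical coordinates. The 3 overlaps of male diet regions with GD18 regions became 0 with identical coordinates.

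Means of the same group can differ between tables: at 1153 segments with identical coordinates in the diet comparison of males and the sex comparison, the mean of control males was equal to the last deposited digit at 917 and differed by up to 13.5 points. The number of CpGs was the same in both at 921 of the 1153, and the means were equal at 912 of those. For zinc finger genes the mean of control males was equal at 2 of 3 such segments, the 2 with the same number of CpGs in both. The other, in Zfp329 with 8 and 7 CpGs, had a gap of 3.1 points. No paired analysis was possible because the tables hold group means only, and leaving out each replicate was not run for the same reason. Depth is unknown, so its limit on each level cannot be given.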
